A study of Mus musculus with 186 samples.

Results

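Somatosensory cortex (SSC), the neocortical area that receives touch, was compared between 5 Akap11 -/- (KO) and 5 wild-type (WT) libraries of mice aged 4 weeks. These are the 10 libraries that the labels assign to this region, age and either genotype, of 186 libraries in the series. The other libraries cover further genotypes, 6 brain regions in all and a second age of 12 weeks. RNA was extracted from tissue dissected out of frozen mouse brains and sequenced as poly(A) libraries. Another 6 libraries of the same region and age came from heterozygous Akap11 +/- mice (HET), and these entered the same model fit. The sources used here do not state how the Akap11 allele was made, the strain, or how many animals lie behind each library. The p-values below therefore measure the spread between libraries, whatever its source. The tissue is bulk cortex, so fewer cells of a type and less RNA per cell cannot be told apart in any result below.

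AKAP11 is an A-kinase anchoring protein. It binds the type I regulatory subunits of protein kinase A (PKA) as well as glycogen synthase kinase 3, and it takes part in the autophagic turnover of PKA subunits. PKA phosphorylates the transcription factor CREB, and calcium entry through synaptic activity acts on CREB and on the ERK (MAP kinase) cascade. Together these switch on immediate early genes, first transcription factors such as Fos, Egr1 and Npas4 and then effectors such as Arc. The same stimulus induces ERK phosphatases and Sprouty proteins, which shut the cascade down again, so that their transcripts serve as a readout of recent ERK signalling.

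Totals ranged from 36.94 to 55.16 M counts (M, mega) in the 16 libraries of 4-week SSC. Levels are given as counts per M (CPM) after scaling of the libraries to each other. All 16 libraries carried Y-linked transcripts, 64.95 to 111.4 CPM in sum, with 0 to 2 counts of Xist. Cortical excitatory neuron markers summed to between 7797 and 12980 CPM in the KO and WT libraries, and markers of layer 4, the input layer of sensory cortex, to between 261 and 472 CPM. The choroid plexus markers summed to at most 4.44 CPM, and the striatal markers to between 297 and 471 CPM in WT and KO libraries, with HET 162 at 968 CPM and HET 93 at 1713 CPM above the rest. A set of 4 libraries stood apart, KO 12, KO 163, WT 142 and WT 914. Whole numbers made up 4.80% to 5.55% of their nonzero values, and 16 libraries of the series were of this kind. The remaining libraries of the series had 17.3% or more. The TMM scaling factors of the 4 libraries lay at 0.84 to 0.86, against 1.05 to 1.07 in the rest of 4-week SSC. Mitochondrial transcripts took 4.04% to 6.39% of their counts, against 2.75% to 4.56%. Excitatory neuron markers summed to between 11860 and 12980 CPM in the 4, against 7797 to 8118 CPM in the other KO and WT libraries. For transmitter release genes the sums were 23220 to 24820 CPM, against 16470 to 17500 CPM. The 4 are called libraries with few whole values, and the main results are also given within each kind of library. Since 2 are KO and 2 are WT, the split is balanced between those genotypes, but no HET library belongs to it.

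Akap11 itself (chromosome 14, 78492246 to 78536808, minus strand, GRCm38) separated the 3 genotypes in every library. The KO libraries held 10.9, 11.5, 11.8, 13.0 and 14.0 CPM and the WT libraries 210.6, 226.5, 231.5, 240.6 and 254.7 CPM. The HET libraries lay between them, from 108 to 125 CPM. KO libraries thus kept 5.25% of the WT mean and HET libraries 50.2%. The log2 fold change of KO over WT was -4.25 ± 0.081 (SE, n = 5 against 5, edgeR quasi-likelihood test, adjusted p = 2.88e-17).

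In KO cortex a small set of transcripts fell, led by Arc, the synaptic immediate early gene. Of 15945 genes tested, 9 passed an adjusted p of 0.05 (0.0564%), and all 9 were lower in KO. Besides Akap11 they were Arc, Trib1, Dusp5, Spry4, Arid3b, Irf2bp2, Kdm6b and Frmd6. No gene was called higher (0 of 15945), although 314 genes (1.97%) were higher at an unadjusted p under 0.05. At that level 462 genes (2.90%) were lower, 776 in all (4.87%). The bulk of the transcriptome was centred on no change, with a median log2 fold change of 0.00493 over all genes tested.

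**Figure D1:**
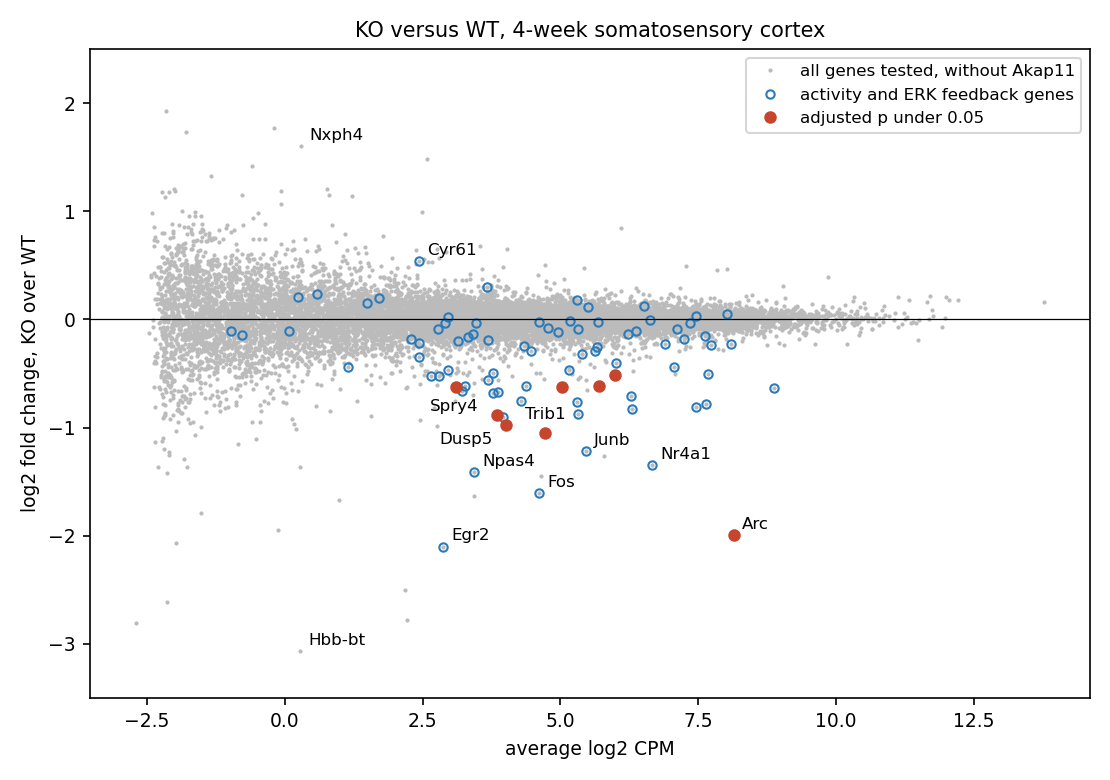
Each point is 1 tested gene, without Akap11, with average log2 CPM on the x axis and the log2 fold change of KO over WT in 4-week SSC on the y axis. Blue circles are genes of the activity and ERK feedback lists and red points are genes at an adjusted p under 0.05. Arc stands at -1.99, and 67 of the 79 circled genes lie below 0.

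Arc (chromosome 15, 74669083 to 74672570) encodes a protein that acts at active synapses in the removal of AMPA receptors. Its level was 58.7, 85.4, 111.2, 114.4 and 196.5 CPM in the KO libraries and 200.4, 425.1, 444.7, 445.3 and 739.6 CPM in the WT libraries. The groups did not overlap, but the highest KO library (KO 163) and the lowest WT library (WT 142) were neighbours in the order. Arc fell to 25.1% of the WT mean, by 1.99 ± 0.30 on the log2 scale (SE, edgeR, adjusted p = 0.0223). The HET libraries lay from 236.9 to 382.3 CPM, above every KO library.

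Trib1 (chromosome 15, 59648350 to 59657099) encodes a pseudokinase that scaffolds the ubiquitin ligase COP1. It stood at 11.7, 13.1, 18.3, 19.4 and 20.99 CPM in KO and at 19.9, 33.0, 39.0, 40.4 and 40.5 CPM in WT libraries. WT 142 alone fell inside the KO range. Trib1 fell by 1.05 ± 0.19 on the log2 scale (SE, edgeR, adjusted p = 0.0451).

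Dusp5 and Spry4 are both feedback inhibitors of ERK signalling. Dusp5 (chromosome 19, 53529109 to 53542431) encodes a nuclear phosphatase that inactivates ERK. Its levels were 8.78, 10.1, 11.0, 11.8 and 12.3 CPM in KO and 11.0, 19.9, 24.1, 24.4 and 26.9 CPM in WT libraries, and it fell by 0.98 ± 0.17 on the log2 scale (SE, edgeR, adjusted p = 0.0325). Spry4 (chromosome 18, 38586247 to 38601415) encodes a Sprouty protein, which blocks signalling from growth factor receptors to ERK. Its levels were 8.002, 8.69, 10.2, 11.1 and 11.9 CPM in KO and 10.9, 18.0, 19.5, 21.4 and 22.0 CPM in WT libraries, and it fell by 0.88 ± 0.15 (SE, edgeR, adjusted p = 0.0325). For both genes the library WT 142 lay within the KO range and the other 4 WT libraries lay clear of it.

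Among the called genes, 3 encode nuclear regulators. Irf2bp2 (chromosome 8, 126588296 to 126593986), a transcriptional corepressor, stood at 46.6, 51.9, 53.3, 54.6 and 63.6 CPM in KO and 65.3, 71.4, 76.3, 81.3 and 91.8 CPM in WT libraries. It fell by 0.52 ± 0.087 on the log2 scale (SE, edgeR, adjusted p = 0.0325), with no overlap. Kdm6b (chromosome 11, 69398508 to 69413675) encodes a demethylase of histone H3. With 22.4, 23.7, 26.0, 29.5 and 30.8 CPM in KO and 29.7, 42.2, 42.4, 43.2 and 46.2 CPM in WT libraries, it fell by 0.62 ± 0.11 (SE, edgeR, adjusted p = 0.0325), and again WT 142 was the sole WT library in the KO range. Arid3b (chromosome 9, 57790353 to 57836793), which encodes a DNA-binding protein of the ARID family, stood at 5.68 to 7.57 CPM in KO and 8.87 to 12.4 CPM in WT libraries. It fell by 0.62 ± 0.11 (SE, edgeR, adjusted p = 0.0451), and its groups did not overlap.

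Frmd6 (chromosome 12, 70825514 to 70902234) encodes a FERM-domain protein linked to the Hippo pathway. It was measured at 35.7, 40.1, 42.4, 47.0 and 50.7 CPM in KO and at 53.7, 67.2, 67.4, 68.7 and 74.4 CPM in WT libraries, without overlap. Frmd6 fell by 0.62 ± 0.10 on the log2 scale (SE, edgeR, adjusted p = 0.0325). Exact two-sided permutation tests of the library values gave p = 0.00794 for Arc, Arid3b, Frmd6 and Irf2bp2, the smallest that 5 against 5 libraries allow. The same exact test gave p = 0.0159 for Kdm6b and Trib1, 0.0238 for Spry4 and 0.0317 for Dusp5. These p-values are unadjusted, and the genes were chosen by edgeR on the same libraries, so they add no independent support. Groups without overlap always give the smallest exact p, and 61 of all genes tested (0.383%) were lower in KO without overlap. Without a stated strand in the counting, antisense or overlapping genes could share reads with Arid3b, Dusp5, Irf2bp2, Kdm6b and Spry4.

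**Figure D2:**
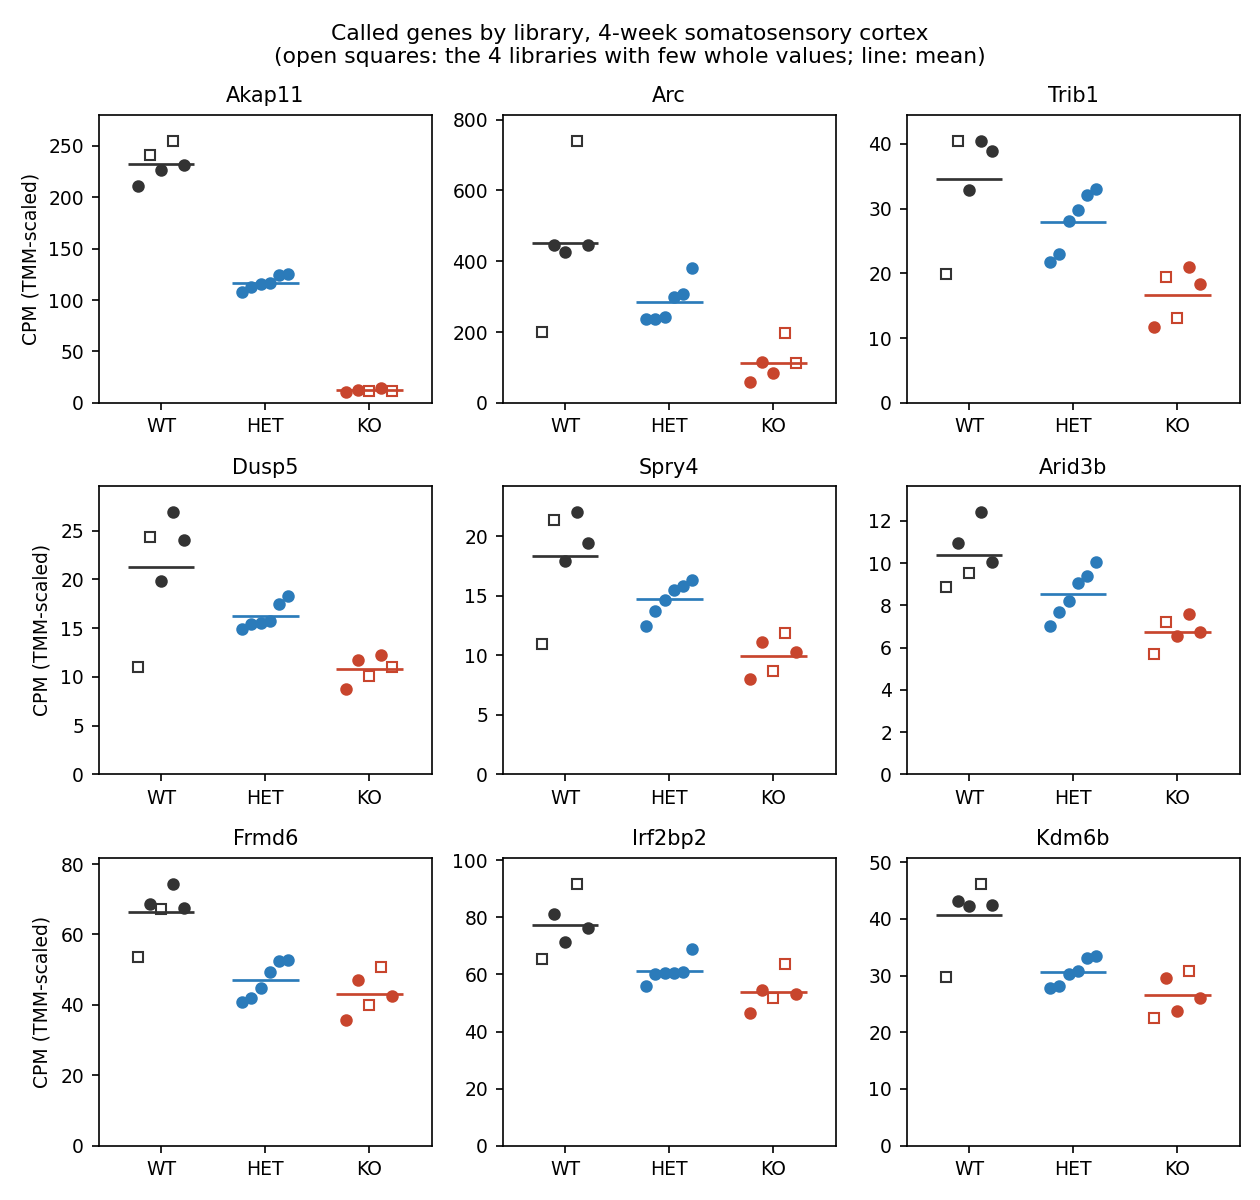
Each panel shows 1 called gene in 4-week SSC, with CPM by library on the y axis for WT, HET and KO, a line at the group mean and open squares for the libraries with few whole values. For Arc the KO libraries span 58.7 to 196.5 CPM and the WT libraries 200.4 to 739.6 CPM, and the open WT square near the KO range in most panels is WT 142.

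The calls were sensitive to single libraries. Akap11 alone was called when any of KO 12, KO 51, KO 932, WT 23, WT 92, WT 913 or WT 914 was left out, or when the HET libraries were left out of the fit. Without KO 161 the called genes were Akap11 and Npas4, without KO 163 there were 16, and without WT 142 there were 42, of which 39 were lower. DESeq2 on all libraries called 40 genes, 38 of them lower, and its calls held all 9 of the edgeR calls.

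Start-proximal sequence of the lower genes is shown because cAMP response elements (CRE) and serum response elements are the textbook entry points of PKA and ERK signalling. The windows are the 250 bases before the transcription start from RefSeq (GRCm38.p6), 5′ to 3′, with capitals at matches to the CRE core TGACG on either strand (CGTCA in reverse) or to the CArG box. The table used held 4 of the 8 called genes other than Akap11. For Dusp5 the window was chr19:53528895-53529144 (plus strand), and it held 2 adjoining CArG boxes 82 to 63 bases before the start and a CRE core 55 to 51 bases before it. Arid3b has 2 listed start windows, of which chr9:57836780-57837029 (minus strand, shown) held a CArG box and a CRE core and chr9:57836485-57836734 (minus strand) held neither. Neither motif was found in the windows of Irf2bp2 and Frmd6. For comparison, windows are given for 3 early transcription factor genes described below, Fos at chr12:85473640-85473889 (plus strand), Nr4a1 at chr15:101266596-101266845 (plus strand) and Npas4 at chr19:4989972-4990221 (minus strand).
Dusp5: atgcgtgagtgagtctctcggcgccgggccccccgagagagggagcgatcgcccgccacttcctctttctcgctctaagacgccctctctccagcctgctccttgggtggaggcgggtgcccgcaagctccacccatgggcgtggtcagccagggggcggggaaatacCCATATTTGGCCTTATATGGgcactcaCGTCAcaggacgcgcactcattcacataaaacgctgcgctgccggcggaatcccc
Arid3b: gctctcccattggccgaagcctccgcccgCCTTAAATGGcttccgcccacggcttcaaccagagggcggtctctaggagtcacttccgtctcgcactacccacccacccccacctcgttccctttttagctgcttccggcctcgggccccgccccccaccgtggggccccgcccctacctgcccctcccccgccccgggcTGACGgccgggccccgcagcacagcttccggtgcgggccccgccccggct
Fos: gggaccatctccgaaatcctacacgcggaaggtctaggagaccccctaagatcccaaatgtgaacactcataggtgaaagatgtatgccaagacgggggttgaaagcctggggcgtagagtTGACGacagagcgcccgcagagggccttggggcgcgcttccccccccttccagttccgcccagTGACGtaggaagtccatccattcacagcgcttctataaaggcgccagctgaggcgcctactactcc
Nr4a1: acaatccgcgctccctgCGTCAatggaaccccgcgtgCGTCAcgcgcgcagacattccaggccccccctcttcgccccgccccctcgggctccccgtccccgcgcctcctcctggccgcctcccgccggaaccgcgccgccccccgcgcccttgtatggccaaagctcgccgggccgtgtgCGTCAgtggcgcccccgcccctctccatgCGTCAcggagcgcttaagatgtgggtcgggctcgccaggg
Npas4: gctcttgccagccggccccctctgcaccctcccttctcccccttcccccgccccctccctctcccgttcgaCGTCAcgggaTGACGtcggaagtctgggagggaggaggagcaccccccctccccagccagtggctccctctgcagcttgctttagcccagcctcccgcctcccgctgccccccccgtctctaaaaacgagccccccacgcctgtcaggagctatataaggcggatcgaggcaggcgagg

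A full CRE (TGACGTCA, which contains the core) was present in 9 of the 59 activity and ERK feedback genes with a window (15.3%). Among the 11749 tested genes with a window it was present in 349 (3.0%), and among all 32851 windows in 1.5%. The core TGACG was found in 32 of 59 (54.2%) against 28.9% of tested genes and 17.8% of all windows, and a CArG box in 2 of 59 (3.4%) against 1.5% and 1.5%. Among the 4 called genes with a window, 0 held a full CRE, 2 held the core and 2 held a CArG box. The shares of the 59 genes belong to the lists, whether or not a member was lower in KO. A match describes letters in the window and shows no binding. The lack of a match says nothing about sequence outside the 250 bases searched.

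The list of early transcription factors had 24 tested members, of which edgeR called 0 (against 0.0564% of all genes). DESeq2 called 7 (against 0.251%), Nfil3, Junb, Klf10, Nr4a1, Fos, Npas4 and Bhlhe40 (adjusted p = 0.00237 to 0.0485, all lower). By edgeR, 15 were lower at an unadjusted p under 0.05 (against 2.90% of all genes) and 0 were higher (against 1.97%). Their median log2 fold change was -0.47, against 0.00493 over all genes tested. Fos, an AP-1 subunit, was measured at 5.16, 7.24, 11.7, 14.8 and 21.8 CPM in KO and 15.0, 38.03, 40.1, 44.6 and 46.7 CPM in WT libraries. The difference of -1.61 ± 0.35 (SE, edgeR) had an adjusted p of 0.139, and the groups overlapped through KO 163 and WT 142. Junb, another AP-1 subunit, showed no overlap, with 19.4 to 32.1 CPM in KO and 33.8 to 78.2 CPM in WT libraries (log2 -1.22 ± 0.24, edgeR, adjusted p = 0.0882). Junb overlaps Prdx2 in the annotation, so its reads may be shared.

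Npas4, a neuron-specific factor induced by calcium entry, stood at 2.55, 3.15, 5.04, 5.10 and 10.1 CPM in KO and 8.38, 13.3, 13.5, 15.9 and 17.9 CPM in WT libraries. Its log2 fold change was -1.41 ± 0.31 (SE, edgeR, adjusted p = 0.145). Egr2, a zinc-finger factor, had the largest fitted decrease of the list, -2.10 ± 0.53 (SE, edgeR, adjusted p = 0.309), at 1.22 to 5.01 CPM in KO and 3.31 to 16.4 CPM in WT libraries. The orphan nuclear receptor Nr4a1 ranged from 36.2 to 81.0 CPM in KO and from 77.6 to 193.5 CPM in WT libraries (log2 -1.35 ± 0.28, edgeR, adjusted p = 0.110). In all of these the lowest WT library was WT 142. The relative Nr4a2 had a log2 fold change of 0.30, Jun one of 0.18, and Egr1, with 249 to 540.5 CPM in KO and 521.7 to 809.3 CPM in WT libraries, one of -0.64 (adjusted p = 0.649).

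Among 34 tested activity effectors, Arc and Trib1 were called by edgeR (against 0.0564% of all genes) and 8 members by DESeq2 (against 0.251%). At an unadjusted p under 0.05, 16 were lower (against 2.90%) and 0 higher (against 1.97%), with a median log2 fold change of -0.19. Tiparp, a mono-ADP-ribosyltransferase, had a difference of -0.68 ± 0.13 (SE, edgeR, adjusted p = 0.0891), and the nuclear protein gene Midn one of -0.70 ± 0.14 (SE, edgeR, adjusted p = 0.0893). Bdnf, the neurotrophin, was at -0.29, with 15.3 to 21.6 CPM in KO and 20.7 to 27.2 CPM in WT libraries. Several other effectors of the list showed values near 0. Among these were Homer1 at -0.15, the pentraxin gene Nptx2 at -0.03, the neuropeptide precursor gene Scg2 at 0.03 and neuritin (Nrn1) at 0.06.

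Of 21 tested ERK feedback genes, Dusp5 and Spry4 were called by edgeR (against 0.0564% of all genes). DESeq2 called Dusp6 as well (against 0.251% of all genes). At an unadjusted p under 0.05, 9 were lower (against 2.90%) and 0 higher (against 1.97%), with a median of -0.18. Dusp6, a cytoplasmic ERK phosphatase, ranged from 35.5 to 88.8 CPM in KO and 78.1 to 116.9 CPM in WT libraries (log2 -0.83 ± 0.18, edgeR, adjusted p = 0.145). Dusp1, which acts on several MAP kinases, was at -0.87 ± 0.23 (SE, edgeR, adjusted p = 0.341). Of 23 ERK cascade genes, 0 were called, and the median was -0.00134. At an unadjusted p under 0.05, 1 was lower (against 2.90% of all genes) and 1 higher (against 1.97%). Those were Sos1, a Ras exchange factor, at -0.12 and Mapk3, which encodes ERK1, at 0.22.

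**Figure D3:**
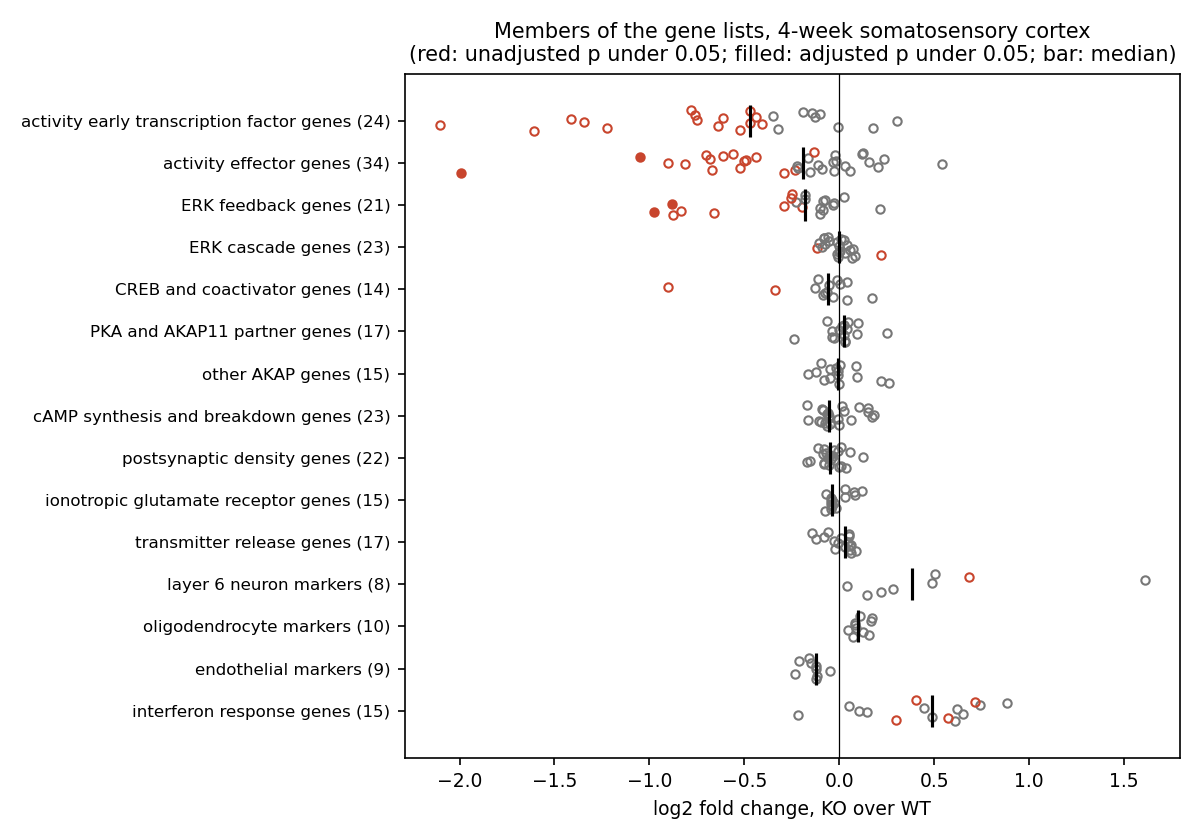
Each row is 1 of 15 gene lists and each circle the log2 fold change of 1 tested member (KO over WT, 4-week SSC, x axis), red at an unadjusted p under 0.05, filled at an adjusted p under 0.05, with a bar at the list's median. The medians are -0.47, -0.19 and -0.18 in the 3 upper rows and -0.00134 for the ERK cascade genes.

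Joined, the 3 activity and ERK feedback lists held 79 tested genes of 80. Of these, edgeR called 4 (against 0.0564% of all genes), all lower. The count was 18 with DESeq2 (against 0.251%), 17 without WT 142 (against 0.261%) and 9 without the 4 libraries with few whole values (against 0.123%). At an unadjusted p under 0.05, 40 were lower (against 2.90%) and 0 higher (against 1.97%), and 67 had a negative log2 fold change. In 5 of them no KO library overlapped a WT library, against 0.383% of all genes in that direction. Their median log2 fold change of -0.23 corresponds to 85.0% of the WT level. The lists were chosen with earlier results of these data known, so the counts describe the genes and are no independent evidence of their direction.

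Across libraries the joined list had a mean log2(CPM + 1) of 4.360, 4.366, 4.399, 4.608 and 4.616 in KO and 4.582, 4.836, 4.900, 4.913 and 4.995 in WT. The library WT 142 was thus below 2 KO libraries, KO 51 and KO 163, and the other 4 WT libraries were above every KO library. Transcripts of red blood cells were also lower in KO as a group. All 4 tested red blood cell markers, of 5 listed, were lower in KO at an unadjusted p under 0.05 (against 2.90% of all genes). Of these 0 were called, and the median log2 fold change was -2.64. The median was -1.13 in the libraries with many whole values and -3.08 in those with few. In the libraries with many, 1 of 4 was lower at that level (against 2.79% of all genes). Their mean log2(CPM + 1) was 0.219 to 1.55 in KO and 1.07 to 3.41 in WT libraries. The WT libraries WT 23 and WT 913, at 1.07 and 1.11, lay within the KO range of these markers, and both had activity gene levels above every KO library. In WT 142 the markers were high, at 3.39, and the activity genes at their WT minimum. WT 914 was the highest library for both the markers and the activity genes, at 3.41 and 4.995. KO 163 was the highest KO library for both, at 1.55 and 4.616. The part of blood content in the result was not tested.

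**Figure D4:**
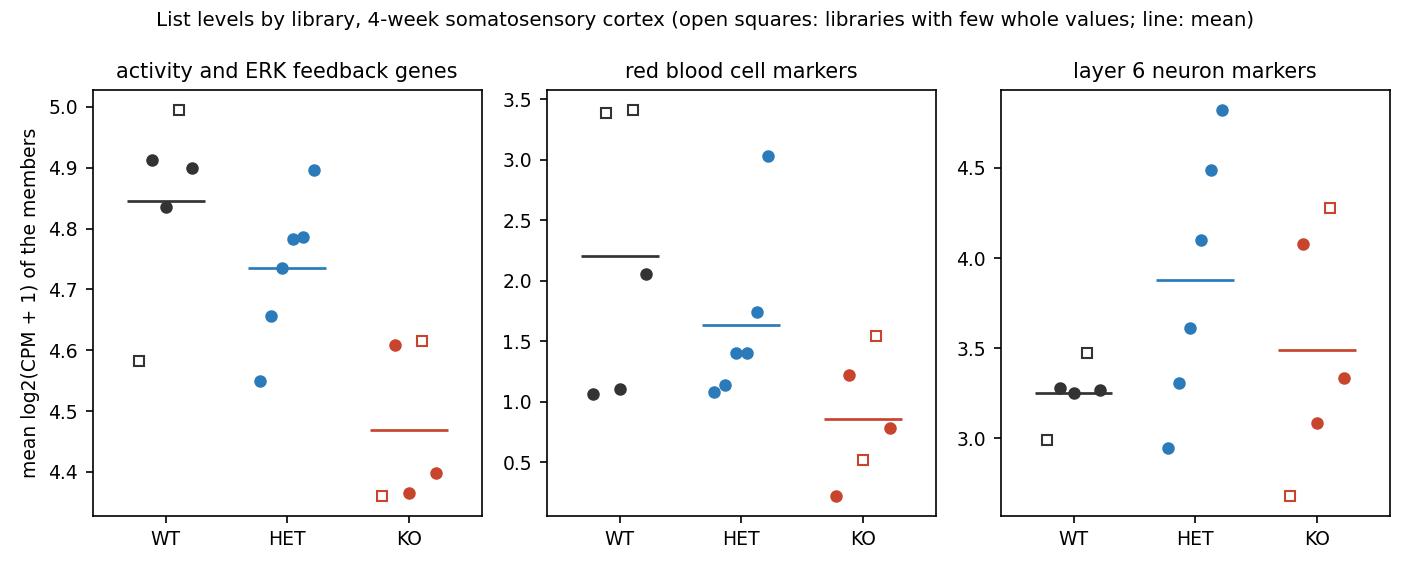
The y axis gives the mean log2(CPM + 1) of a list's members by library, for activity and ERK feedback genes, red blood cell markers and layer 6 markers in WT, HET and KO libraries of 4-week SSC, with a line at the mean and open squares for libraries with few whole values. The low open WT square of the activity panel is WT 142 at 4.582, and the HET libraries run from 4.550 to 4.896.

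Within the 3 KO and 3 WT libraries with many whole values, 20 of 16205 genes were called, 19 lower (0.117%) and 1 higher (0.00617%), and 814 genes (5.02%) had an unadjusted p under 0.05. Arc fell there by 2.35 ± 0.22 on the log2 scale (SE, n = 3 against 3, edgeR, adjusted p = 0.000468). The activity and ERK feedback genes called were Arc, Dusp5, Dusp6, Fos, Klf10, Midn, Spry4, Tiparp and Trib1, 9 in all, and 38 were lower at an unadjusted p under 0.05 (against 2.79% of all genes). Arid3b was not called in this subset (adjusted p = 0.0831). The log2 fold changes in the larger and smaller subset were -1.15 and -0.90 for Trib1, -1.11 and -0.74 for Dusp5, and -1.02 and -0.66 for Spry4. They were -0.57 and -0.45 for Irf2bp2, -0.69 and -0.52 for Kdm6b, -0.75 and -0.42 for Frmd6, and -0.68 and -0.52 for Arid3b. Within the 2 KO and 2 WT libraries with few whole values, Arc had a log2 fold change of -1.62 ± 0.60 (SE, edgeR, adjusted p = 1), and 10 of the 79 genes were lower at an unadjusted p under 0.05 (against 1.04% of all genes). The median over the 79 genes was -0.26 in the larger subset and -0.315 in the smaller.

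Genes that act upstream were also examined. Of 14 CREB and coactivator genes edgeR called 0, and 2 were lower at an unadjusted p under 0.05 (against 2.90% of all genes). These were the CREB-induced kinase gene Sik1 at -0.90 ± 0.23 (SE, edgeR, adjusted p = 0.325) and the coactivator gene Crebbp at -0.34 ± 0.089 (SE, edgeR, adjusted p = 0.348). Sik1 is also a member of the effector list and was called by DESeq2 (adjusted p = 0.0403). For 17 genes of PKA and of AKAP11 partners, 0 were called and 0 were lower or higher at an unadjusted p under 0.05, with a median of 0.0237. They include Prkaca, the catalytic subunit, at 0.03 and the glycogen synthase kinase 3 genes Gsk3a at -0.00174 and Gsk3b at 0.04. The same held for 15 tested genes of other A-kinase anchoring proteins (median -0.0091) and for 23 genes of cAMP synthesis and breakdown (median -0.0539), 0 of which passed an unadjusted p of 0.05. Among the latter, the adenylyl cyclase gene Adcy8 was at -0.16 and the phosphodiesterase gene Pde4b at 0.15. Of 15 genes of the SRF and actin list 1 was lower at that level (against 2.90% of all genes), Srf itself at -0.20 ± 0.062 (SE, edgeR, adjusted p = 0.65).

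Prkar1a, the type I alpha regulatory subunit that AKAP11 binds, had a log2 fold change of -0.24 ± 0.12 (SE, edgeR, adjusted p = 1) over all libraries. Its level differed between the library subsets. In the libraries with many whole values it was 432, 434 and 438 CPM in KO and 515.0, 520.3 and 559.5 CPM in WT, where it fell by 0.29 ± 0.049 on the log2 scale (SE, n = 3 against 3, edgeR, adjusted p = 0.0385). In those with few whole values it was 606.8 and 609.8 CPM (KO) and 676 and 701 CPM (WT), a difference of -0.19 ± 0.078 (SE, edgeR, adjusted p = 1). Within each subset the KO libraries were all below the WT libraries, but the share of all genes that do so in groups this small was not counted. The 6 HET libraries, which have many whole values, ranged from 492 to 536 CPM.

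By the rule for the largest changes, which asks for no overlap between KO and WT libraries, further lower genes were not called by edgeR. DESeq2 called 4 of these 5, all but Adrb1, with adjusted p-values of 0.000375 (Tnfrsf25), 0.00544 (Map3k14), 0.0158 (Dnajb5) and 0.0225 (Ephb3). The edgeR values follow. The genes were Tnfrsf25, a death receptor (log2 -0.98 ± 0.19, edgeR, adjusted p = 0.0794), Map3k14, the NF-kappa-B-inducing kinase (-0.62, adjusted p = 0.139), and Dnajb5, an HSP40 chaperone (-0.50, adjusted p = 0.18). The ephrin receptor gene Ephb3 was at -0.44 (adjusted p = 0.154) and the beta-1 adrenergic receptor gene Adrb1, which signals to adenylyl cyclase, at -0.32 (adjusted p = 0.368). Dnajb5, for instance, stood at 143.6 to 206.9 CPM in KO and 214.0 to 308.3 CPM in WT libraries.

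No higher gene passed the adjusted threshold in edgeR, while DESeq2 called Pnoc (adjusted p = 0.000375) and Mrps18b (adjusted p = 0.00711). The smallest edgeR p by the same rule belonged to Pnoc, the precursor of the neuropeptide nociceptin, with 6.01, 6.78, 7.29, 7.79 and 8.403 CPM in KO and 4.56, 4.71, 4.77, 5.41 and 5.69 CPM in WT libraries (log2 0.53 ± 0.10, edgeR, adjusted p = 0.0769). Pnoc was called in the subset with many whole values, at 0.67 ± 0.10 (SE, edgeR, adjusted p = 0.0213). Cort, the interneuron peptide cortistatin, was at 0.40 (adjusted p = 0.712). The Wnt-binding Sfrp2 was at 0.58 (adjusted p = 0.317), the keratin gene Krt9 at 0.56 (adjusted p = 0.348) and the predicted gene Gm3696 at 0.52 (adjusted p = 0.375). Smaller positive values belonged to the mitochondrial folate enzyme gene Mthfd1l (0.38), the fatty acid elongase gene Elovl2 (0.31), Ptprr, a phosphatase that acts on ERK (0.26), and the mitochondrial ribosomal genes Mrps18b (0.25) and Mrpl33 (0.23), whose adjusted p-values ranged from 0.139 to 0.668. In the direction of higher KO, 43 genes (0.270%) had no overlap of libraries, and 61 (0.383%) in the other.

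Cell type markers showed no called member. Among the layer lists, 0 of 7 layer 2/3, 0 of 6 layer 4 and 0 of 7 layer 5 markers were higher at an unadjusted p under 0.05. At that level 1 layer 5 marker, Fam84b, was lower (log2 -0.49, adjusted p = 0.872), against 2.90% of all genes. All 8 layer 6 markers had positive values, with a median of 0.38 (0.386 and 0.406 within the libraries with many and few whole values), and Cplx3 alone passed an unadjusted p of 0.05 (0.68 ± 0.32, SE, edgeR, adjusted p = 1). Layer 6 levels, as mean log2(CPM + 1), ran from 2.679 to 4.279 in KO and from 2.990 to 3.473 in WT libraries, so the KO range enclosed the WT range. That spread lies beside the activity result, and its part in it was not tested.

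For 10 cortical excitatory markers the median was -0.0485 and for 14 interneuron markers 0.10, with 0 past an unadjusted p of 0.05 in either list, and Npy (0.23) and Gad2 (0.14) had the smallest p among the latter. Of glial lists, 10 of 10 oligodendrocyte markers had positive values (median 0.0984), while the astrocyte and microglia medians were 0.0176 and -0.0232. All 9 endothelial and all 7 mural markers had negative values, with medians of -0.124 and -0.0794, which stand beside the lower haemoglobin. None of these passed an unadjusted p of 0.05. Synaptic genes lay close to 0. Of 15 ionotropic glutamate receptor, 12 GABA-A receptor, 22 postsynaptic density and 17 transmitter release genes, 0 passed an unadjusted p of 0.05, with medians of -0.0475 for the postsynaptic density and 0.0300 for release.

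Heterozygous libraries had means between those of KO and WT for the genes called in KO, of which edgeR called only Akap11 in them. Of the 79 activity and ERK feedback genes, 47 had a HET mean below WT and above KO. No HET library has few whole values, while some WT and KO libraries do. The comparisons of HET with WT and with KO therefore also differ in the kind of library, and none was run within 1 kind. Against WT, 1 of 15945 genes was called, Akap11 (0.00627%), at -0.99 ± 0.067 (SE, n = 6 against 5, edgeR, adjusted p = 1.77e-07), and 874 genes (5.48%) had an unadjusted p under 0.05. HET over WT, Arc was at -0.67, Trib1 at -0.31, Dusp5 at -0.39, Spry4 at -0.32, Arid3b at -0.28, Irf2bp2 at -0.34 and Kdm6b at -0.41, each with an adjusted p of 0.789. Frmd6 had the smallest p among genes other than Akap11, at -0.50 ± 0.095 (SE, edgeR, adjusted p = 0.412), and DESeq2 called it (adjusted p = 0.00452). Its HET range of 40.9 to 52.7 CPM lay below every WT library, as for 0.270% of all genes. Without WT 142, Frmd6 and Kdm6b were called as well by edgeR (adjusted p = 0.0442 for each). The striatal markers were high in HET 162 and HET 93. Without either of these libraries in turn the single call was Akap11, and the fit without both was not run.

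Of the 79 activity and ERK feedback genes, 16 were lower (against 1.93% of all genes) and 2 higher (against 3.55%) in HET at an unadjusted p under 0.05, with a median of -0.104. These values and those of KO share the same 5 WT libraries. The direct test of KO against HET called Akap11 alone (0.00627%), at -3.26 ± 0.077 (SE, edgeR, adjusted p = 1.3e-15), with 1548 genes (9.71%) at an unadjusted p under 0.05. Between KO and HET, Arc was at -1.33 ± 0.29 (SE, edgeR, adjusted p = 0.335) and Frmd6 at -0.12. Of the 79 genes, 28 were lower in KO than in HET at an unadjusted p under 0.05 (against 5.22% of all genes) and 2 were higher (against 4.49%).

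At 12 weeks no activity or ERK feedback gene was called. Arc stood at 178.5, 215.5, 331.2, 367.2 and 413 CPM in 5 KO libraries and at 65.0, 201.1, 255.4, 261.7 and 324.2 CPM in 5 WT libraries of that age. The groups overlapped, with a log2 fold change of 0.44 ± 0.35 (SE, edgeR, adjusted p = 1). The other genes called at 4 weeks, Akap11 aside, had values from 0.03 to 0.28 at 12 weeks, Dusp5 highest. Of the 79 activity and ERK feedback genes, 0 were lower (against 1.91% of all genes) and 1 was higher (against 1.98%) at an unadjusted p under 0.05, and the median was 0.0219.

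Akap11 was among 4 genes called at 12 weeks (0.0252% of 15893), all lower, and fell by 3.91 ± 0.078 on the log2 scale (SE, edgeR, adjusted p = 1.66e-15). An unadjusted p under 0.05 was reached by 619 genes (3.89%). Ccdc3, a secreted coiled-coil protein gene, stood at 7.84 to 8.96 CPM in KO and 11.9 to 15.0 CPM in WT libraries and fell by 0.60 ± 0.074 (SE, edgeR, adjusted p = 0.00297). Prkar1a stood at 502.9, 516, 516, 523.6 and 524.7 CPM in KO and 581.1, 609.3, 612.4, 627.2 and 651.9 CPM in WT libraries, and fell by 0.25 ± 0.041 (SE, edgeR, adjusted p = 0.0398). Wfs1, which encodes wolframin of the endoplasmic reticulum, fell by 0.42 ± 0.068 (SE, edgeR, adjusted p = 0.0398). None of the 3 overlapped between genotypes, as for 0.510% of all genes in that direction. At 4 weeks Ccdc3 was at -0.19 and Wfs1 at -0.07, and neither was called.

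The change of the KO effect with age was tested directly. Of 16358 genes, 0 were called by edgeR, and 468 (2.86%) had an unadjusted p under 0.05. Arc had the smallest p, with an effect 2.44 ± 0.49 higher at 12 weeks (SE, edgeR, adjusted p = 0.405), and DESeq2 called it (adjusted p = 0.013), its single call. Irf2bp2 came next at 0.74 ± 0.17 (SE, edgeR, adjusted p = 0.919). Among the 79 genes 25 were higher (against 1.60% of all genes) and 1 lower (against 1.26%) at an unadjusted p under 0.05, with a median difference of 0.28.

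**Figure D5:**
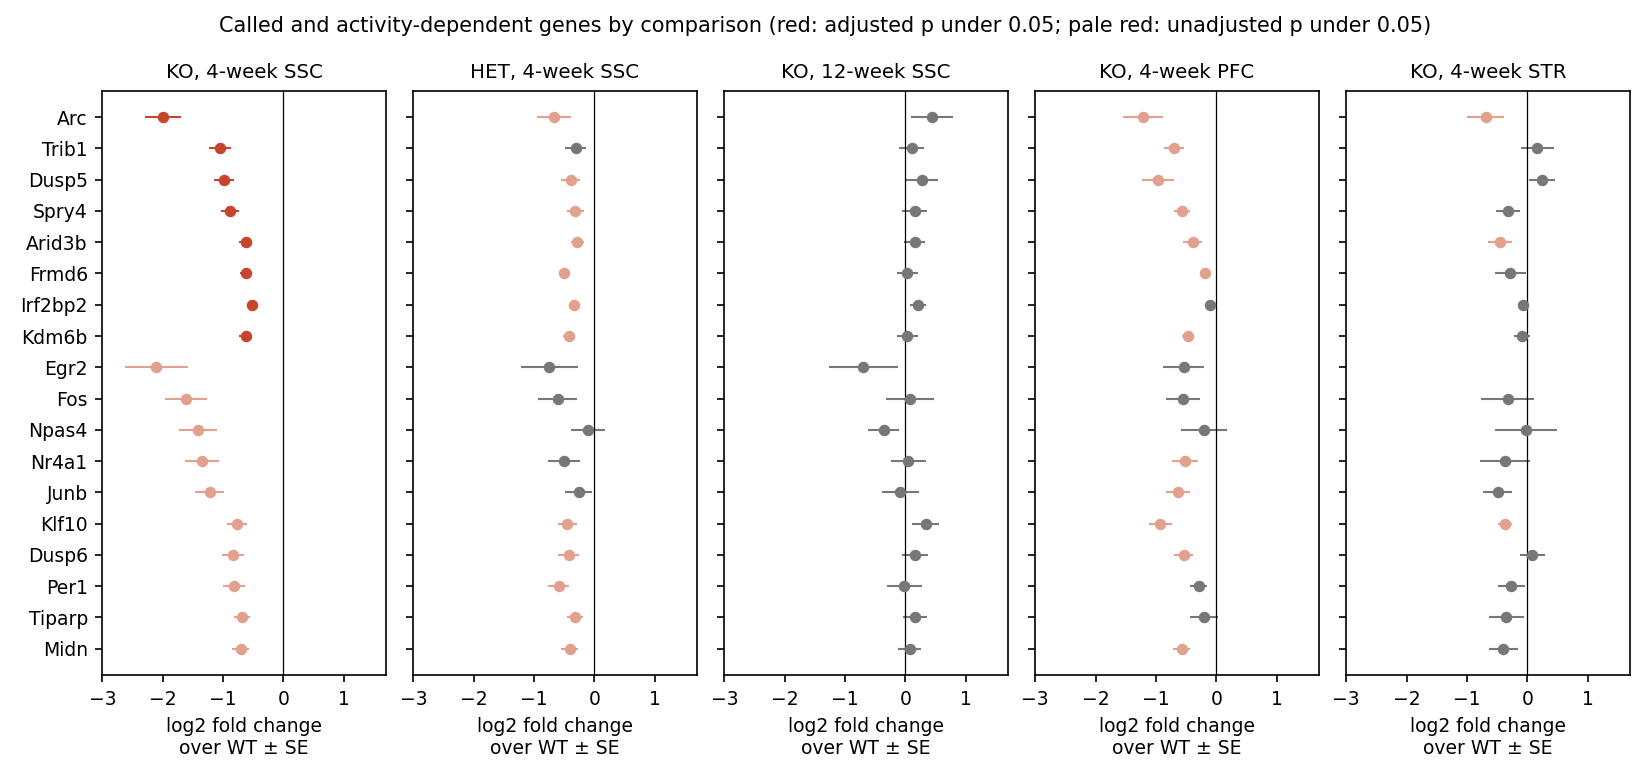
Log2 fold changes ± SE of 18 genes are plotted on the x axis in 5 panels, KO and HET over WT in 4-week SSC, and KO over WT in 12-week SSC, 4-week prefrontal cortex and 4-week striatum. Arc stands at -1.99, -0.67, 0.44, -1.22 and -0.69 in that order, and a gene that was not tested has no point.

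Prefrontal cortex, the other cortical region sampled at 4 weeks, gave values of the same sign for several of these genes. Arc was 72.8 to 199.6 CPM in KO and 226 to 512 CPM in WT libraries there, a log2 fold change of -1.22 ± 0.33 (SE, edgeR, adjusted p = 0.198). Dusp5 was at -0.97, Klf10, a TGF-beta-inducible zinc-finger gene, at -0.92 and Trib1 at -0.70. In that region 28 of the list's genes were lower (against 7.20% of all genes) and 2 higher (against 7.92%) at an unadjusted p under 0.05. In a joint test of the 2 regions 0 of 16386 genes were called by edgeR and 1104 (6.74%) had an unadjusted p under 0.05, so no difference in KO effect was detected. The smallest p belonged to Asb8 (0.245 ± 0.059, SE, edgeR, adjusted p = 0.694) and Zfp703 (0.526 ± 0.13, SE, edgeR, adjusted p = 0.694), while for Arc the difference was -0.76 ± 0.47 (SE, edgeR, adjusted p = 0.694). Of the 79 genes 6 had a lower effect in SSC (against 3.13% of all genes) and 2 a higher one (against 3.61%) at an unadjusted p under 0.05. DESeq2 called 1 gene, CR974586.1, which falls outside the rule for named genes.

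Striatum differed from SSC in 110 of 16274 genes (0.676%) by the same test. Tmem114 showed the smallest p, at -0.31 in SSC and -3.15 in striatum (difference 2.85 ± 0.29, SE, edgeR, adjusted p = 1.48e-06), followed by Lurap1, at -0.03 and 0.77 (difference -0.80 ± 0.092, SE, edgeR, adjusted p = 1.09e-05). Of the activity and ERK feedback genes 4 had a lower effect in SSC (against 0.412% of all genes) and 1 a higher effect (against 0.264%) among the calls. At an unadjusted p under 0.05 these were 22 (against 6.96%) and 5 (against 3.74%). The lower ones were Dusp5, at -0.98 in SSC and 0.245 in striatum (adjusted p of the difference 0.0332), Pcsk1, a prohormone convertase gene, Crem, a cAMP-responsive repressor gene, and Spred3, a Sprouty-related gene. The last 3 rose in striatum, by 1.03, 0.48 and 0.53, and stood at -0.11, -0.03 and -0.08 in SSC. Inhba, the activin A subunit, fell in striatum by 1.34 and was at 0.20 in SSC. For Arc the difference of -1.31 ± 0.45 (SE, edgeR) had an adjusted p of 0.206.

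In the remaining 4-week regions the hippocampal value of Arc was -0.22, the thalamic one -1.18 and the nigral one -0.10 (log2, KO over WT), with adjusted p-values of 0.881, 0.194 and 0.924. The list's medians were -0.0832, 0.0137 and -0.104 in the same order. Arc in SSC was also set against Arc in each other region over libraries with the same number, 13 to 15 pairs of libraries per region and 5 relations in all. Each value was the deviation of log2(CPM + 1) from the mean of its genotype. Differences between genotypes, which both regions may share, therefore do not enter these correlations. Pearson's r ran from -0.185 to 0.379 and Spearman's rho from -0.176 to 0.305. The lowest adjusted permutation p was 0.588, and r ran from -0.223 to 0.454 once the 2 libraries farthest from the median were left out.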

How the data were processed

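The authors deposited expected counts per gene, that is estimated counts that need not be whole, 28338 symbols by 186 libraries, made with Salmon (version not given) on mm10 per the submitters' processing notes. Libraries were made from 200 ng of RNA with a stranded poly(A) kit per the labels' protocols; the use of strand in counting was not stated. Symbols were placed on GRCm38 through GENCODE M21 (95.5% matched). Libraries were grouped by the labels alone.

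Counts were rounded and fitted with edgeR 4.0.16 in R 4.3.3 (TMM, filterByExpr, glmQLFit, glmQLFTest), all 3 genotypes of a region and age together, without covariates. Benjamini-Hochberg adjustment ran over all genes tested, with calls at an adjusted p under 0.05. SE is the absolute log2 fold change divided by the root of F. Differences between ages or regions were tested in 1 joint fit each. Chi-square per degree of freedom was at least 8.98 in 35 replicate pairs, and each library counted as 1 sample. Totals of 36.94 to 55.16 M counts limit precision mainly for low genes. The test was run on simulated counts before use.

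Alternatives were other size factors, no filter, DESeq2 1.42.0, limma-voom 3.58.1, a robust prior, fewer genotypes, a surrogate variable (sva 3.50.0), covariates, the replicate block and leaving out libraries. Genes named are Akap11, every call, the 10 largest rises and falls with unadjusted p under 0.01, average log2 CPM of at least 1 and no overlap, members of the activity and ERK feedback lists, up to 4 members of other lists and the 2 smallest p of each difference test or of HET against WT, and the 12-week calls. The members and the 42 lists were chosen with earlier results of these data known. Promoter sequences are from RefSeq.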

Additional observations from a re-analysis of the deposited data

Results flagged for a closer look

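For 59 named genes and some gene lists, 126 groups of 5 libraries, WT or KO in 4-week SSC, were checked for a library far from the others. The rule was a gap above 0.71 of the range. Chance alone flags about 1 group in 20, and 9 groups held such a library. The library WT 142 was the lowest WT library in 5 of them, for Kdm6b at 29.66 CPM (the next at 42.24), Fos at 15 CPM (38.03), Csrnp1 at 9.664 CPM (16.54), Tiparp at 10.85 CPM (17.83) and Dusp1 at 27.53 CPM (51.67). Its red blood cell marker level was 3.387 and it is a library with few whole values; the part of either was not tested. The library WT 914 was far above the other WT libraries for Egr1, at 809.3 CPM against 572.5 CPM in the next. Among KO libraries, Klf10 stood at 48.71 CPM in KO 163 (next 26.93), Nfil3 at 7.276 CPM in KO 932 (next 6.43) and Bdnf at 15.3 CPM in KO 161 (next 19.78).

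The KO effect differed between SSC and striatum at 4 weeks for 8 of the named genes, by the edgeR test of the difference. On the log2 scale, SSC minus striatum, the differences were -0.51 for Crem, -1.23 for Dusp5, 0.62 for Elovl2, 1.54 for Inhba, -0.80 for Lurap1, -1.15 for Pcsk1, -0.62 for Spred3 and 2.85 for Tmem114.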

How the results depend on the processing

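For KO against WT in 4-week SSC, 9 genes were called. DESeq2 called 40, the fit of only the 2 genotypes 1, a robust prior 3 and limma-voom 3, and 20 were called without the 4 libraries with few whole values, an alternative chosen after seeing the data. Leaving out single libraries gave 1 to 42 calls, 42 of them without WT 142. The calls other than Akap11 were kept in 2 of 10 such fits each, Dusp5 in 1. HET against WT gave 1 call, 3 with DESeq2 and 1 to 3 with a library left out; KO against HET gave 1, 10 with DESeq2 and 1 with any library left out. At 12 weeks the 4 calls became 13 with DESeq2, 8 with the replicate block and 2 to 5 with a library left out. The difference between ages and that between SSC and prefrontal cortex went from 0 calls to 1 with DESeq2 and stayed at 0 in each fit with a library left out. Against striatum the 110 calls became 246 with DESeq2, 142 with the replicate block and 74 to 105 with a library left out. The cause was not tested. The 40 lower activity and ERK feedback genes were 36 to 41 in number under all alternatives. Over 59 named genes and 1180 gene and setting pairs, 0 reversed, 95 lost a call and 48 gained one. The 59 were the calls, the largest changes without overlap, and activity or ERK feedback genes at an unadjusted p under 0.05 in the main fit. Since they were chosen on that fit and the settings reuse most of its libraries, reversals were unlikely from the start. No paired analysis was possible because KO and WT libraries of 4-week SSC share no replicate number. At 12 weeks the deviations of same-numbered libraries correlated at 0.0379 to 0.336, over 0.1 in 3 of 5 numbers. At 4 weeks they correlated at -0.197 to 0.509 between SSC and prefrontal cortex, over 0.1 in 10 of 14 numbers. Between SSC and striatum the range was -0.281 to 0.535, over 0.1 in 8 of 14. With the number as a block, the consensus correlation was 0.192 for prefrontal cortex and 0.162 for striatum. The main tests did not take the numbers as pairs. Whether same-numbered libraries of 2 regions came from the same animal was not stated, and if so those tests counted them as independent. A sex covariate was not run, since all libraries carried Y-linked transcripts. Depth limits genes of a few counts.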

Other observations

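Interferon response genes, a list outside the comparisons above, had positive log2 fold changes of KO over WT in 14 of 15 members in 4-week SSC, with a median of 0.487, 0 calls and 4 members higher at an unadjusted p under 0.05 (against 1.97% of all genes). These were Ifit2 (0.30), the guanylate-binding protein gene Gbp2 (0.71), Ifit3 (0.57) and Xaf1 (0.41). Their mean log2(CPM + 1) was highest in KO 932 (3.174) and KO 161 (2.551), and the other 3 KO libraries lay within or near the WT range of 2.154 to 2.466. In the libraries with few whole values, which hold neither of these, the median was 0.0351, and in the others 0.837.

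At an unadjusted p under 0.05, 2.90% of all genes were lower in KO in 4-week SSC and 1.97% higher. Of 16 circadian clock genes 3 were lower at that level, Per1 (-0.81 ± 0.18, SE, edgeR, adjusted p = 0.165), Bhlhe40 (-0.78) and Nr1d1 (-0.27). The first 2 of these are also members of the activity lists and were called by DESeq2. Of 13 glucocorticoid response genes Cdkn1a alone was lower at that level (-0.56, adjusted p = 0.649), and of 19 sterol synthesis genes Stard4, a sterol transfer protein gene, alone was higher (0.21, adjusted p = 0.934). In the lists of 20 autophagy and lysosome genes, 12 heat shock genes and 79 cytosolic ribosomal protein genes 0 passed an unadjusted p of 0.05, with medians of 0.0334, 0.0139 and 0.0307. All 13 mitochondrially encoded genes had positive values (median 0.184), but the sign depended on the library subset, with a median of -0.0967 and 11 of 13 negative in the libraries with many whole values and a median of 0.364 in those with few. Positive values were also held by 81 of 89 nuclear oxidative phosphorylation genes (median 0.064), with 0 called in either list. Of 37 tested genes within 5 Mb of Akap11, 0 were called and Kctd4 was lower at an unadjusted p under 0.05 (-0.43, adjusted p = 0.839). Among 10 genes from schizophrenia exome studies, Cacna1g, a T-type calcium channel gene, was lower at that level (-0.21, adjusted p = 0.734).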
